A study of Mus musculus with 50 samples.

Results

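The net change from 2i culture to 48 h of epiblast-like cell (epiLC) culture was described in unmodified V6.5 cells, a mouse embryonic stem (ES) cell line. The genes were all those of the TPM table that held these cells and reached at least 1 TPM (a unit in which each transcript's share is corrected for its length and all transcripts of a library add up to a fixed total) in at least 2 of its 6 libraries, which left 16559 of 55421 genes. The series holds 50 samples on the partners of β-catenin in ES cells and epiLC. Of these, 2 libraries of V6.5 cells in 2i medium were compared with 2 libraries of V6.5 epiLC at 48 h. A further 2 libraries of V6.5 epiLC at 24 h lay in the same table and shared the fit. The 2 control epiLC libraries at 96 h lay in a table normalized separately, so their levels are given only side by side. The titles of all these libraries name no hairpin or other genetic change, while the treatment text that they share with the other samples speaks of β-catenin knockdown. The growth text names 2i medium for the epiLC as well, whereas their culture condition is given as epiLC medium, and the latter was followed. The composition of the epiLC medium and the moment from which the hours count are not stated in the labels. All groups come from 1 cell line, and nothing in the labels says whether libraries of a group stem from separate cultures, so the p-values reflect library-to-library spread that could be technical alone.

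ES cells are kept in a naive state, like that of the early epiblast, by 2 inhibitors (2i), one of MEK, the kinase that activates ERK, and one of GSK3, the kinase that marks β-catenin for destruction. Blocking GSK3 keeps β-catenin stable and relieves repression by TCF7L1 at naive genes. In epiLC culture the inhibitors are usually withdrawn and FGF and activin given, and cells pass through a formative state, in which naive factors are lost, ERK signaling and de novo DNA methyltransferases come on, and germ layer genes are still low.

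The 2i and 48 h libraries each had 15016 to 15351 genes at 1 TPM or more, and mitochondrial transcripts took 3.21% to 3.88% of their TPM. Libraries of a group differed by a median of 0.06 to 0.07 across genes on the log2(TPM + 1) scale, against 0.43 to 0.45 between 2i and 48 h. Of the marker genes set beside the labels, 24 of 26 naive genes were higher in 2i and 22 of 23 formative genes were higher at 48 h. Exceptions such as Gbx2 are given below. The lists were chosen with earlier results of these data known, so these counts are no independent check of the labels. Among the genes not tested, 20571 were at 0 in all 6 libraries. Near the expression limit, 291 genes had a second-highest value of 1 to 1.1 TPM and were tested, and 349 had one of 0.9 to 1 TPM and were not.

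Most expressed genes passed the test. Of the 16559 genes, 7474 were higher at 48 h than in 2i (45.1%) and 5093 were lower (30.8%), at an adjusted p under 0.05 by limma with Benjamini-Hochberg adjustment, together 12567 (75.9%). Most of these changes were small, and they could pass the test because libraries of a group agreed closely. A call with at least a 2-fold difference on the log2(TPM + 1) scale was reached by 1994 higher genes (12.0%) and 1376 lower ones (8.31%), together 20.4%. At least 8-fold changes were called for 151 higher and 122 lower genes. Counts of list members below are to be read beside the shares over all genes, 45.1% higher and 30.8% lower. At 2-fold those shares are 12.0% and 8.31%, and a list near them is not set apart by its counts. The median change over all genes was 0.11 on the log2 scale, with quartiles of -0.30 and 0.53. The groups did not overlap in 14439 genes (87.2%), so separation of the 4 libraries alone distinguishes few genes here. All log2 changes below are 48 h minus 2i on the log2(TPM + 1) scale, which understates the change of genes low in one state. In bulk RNA, fewer cells of a type and less RNA per cell cannot be told apart.

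**Figure D1:**
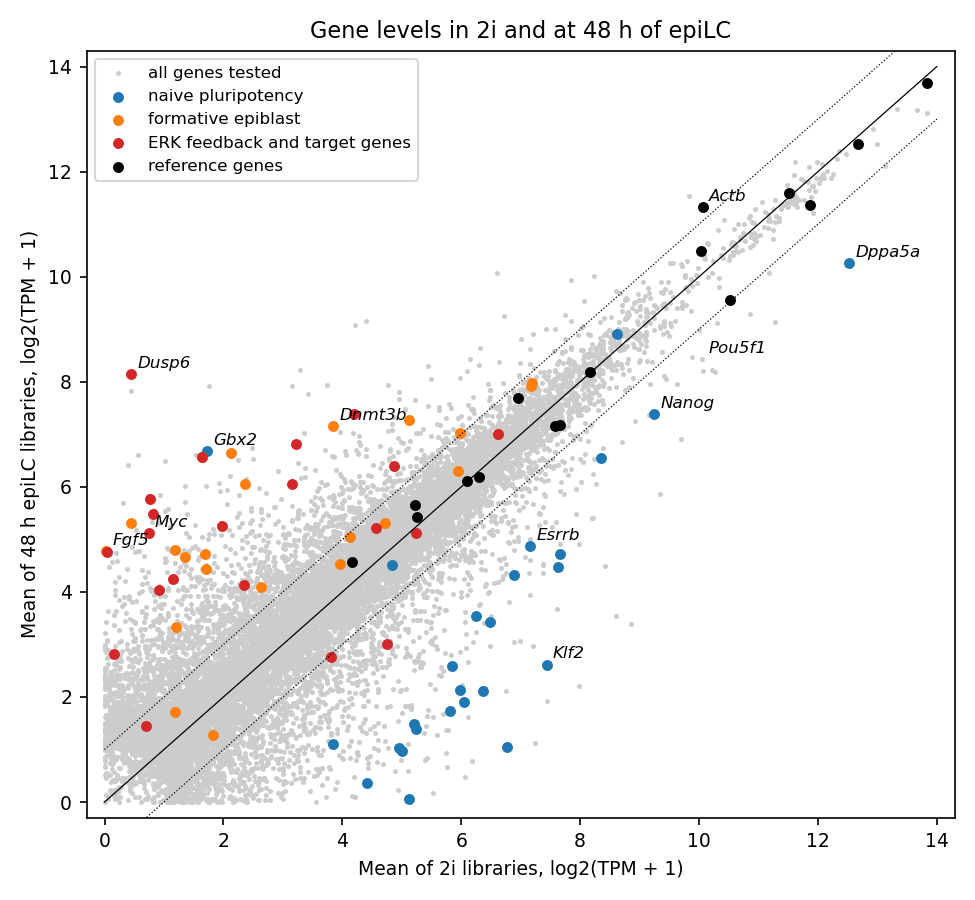
Mean TPM of the 2 libraries at 48 h of epiLC (vertical) against that of the 2 libraries in 2i (horizontal), both drawn as log2(TPM + 1), 1 gray point per gene tested, with the naive, formative, ERK and reference gene lists in color, a solid line at equal levels and dotted lines at 2-fold differences. Dusp6 stands far above the equal line and Klf2 far below it, with log2 changes of 7.70 and -4.82.

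Leaving out predicted genes, pseudogenes and ribosomal protein genes, the largest rise was that of Dusp6, the phosphatase that inactivates ERK and is itself induced by ERK. It was at 0.41 and 0.32 TPM in 2i, 80.2 and 77.1 TPM at 24 h, and 262 and 303 TPM at 48 h, a log2 change of 7.70 (SE 0.07, adjusted p = 9.17e-09). Dusp4, a nuclear ERK phosphatase, went from 0.63 and 0.77 to 49.2 and 57.7 TPM. Both carbonic anhydrases among the 12 largest rises interconvert carbon dioxide and bicarbonate. Car4, anchored at the cell surface, went from 0.45 and 0.26 to 218 and 231 TPM (log2 change 7.38). Car2, in the cytosol, went from 9.04 and 8.42 to 302 and 296 TPM (log2 change 4.95). Groups that do not overlap were required of the 12 largest rises, and 87.2% of all genes tested had them.

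Contractile and matrix genes formed another part of the largest rises. Tagln, an actin-binding protein of smooth muscle, was at 2.40 and 2.39 TPM in 2i, at 2.86 and 3.93 TPM at 24 h and at 226 and 258 TPM at 48 h (log2 change 6.16). Myl9, a myosin regulatory light chain, went from 0.39 and 0.24 to 85.7 and 83.2 TPM (log2 change 6.02), with 2.45 and 2.98 TPM at 24 h. Ccn1, a secreted matrix protein and known target of the YAP coactivator, went from 1.95 and 1.84 to 95.6 and 97.5 TPM (log2 change 5.07). For these 3 genes the level at 24 h lay much nearer to 2i than to 48 h. The remaining members of the 12 largest rises were Nnat, Pkdcc (a secreted tyrosine kinase), Fndc3c1, Syt13 (of the synaptotagmin family) and Gbx2, with log2 changes between 4.95 and 6.05.

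Among the falls, with the same kinds of gene left out, Jam2, a junctional adhesion molecule, led, with 108 and 107 TPM in 2i and 0.96 and 1.16 TPM at 48 h, a log2 change of -5.72 (SE 0.09, adjusted p = 3.07e-08). Spp1, which encodes the secreted phosphoprotein osteopontin, went from 388 and 387 to 10.5 and 10.7 TPM (log2 change -5.07). Mylpf, a fast skeletal myosin light chain, went from 447 and 479 to 10.8 and 8.22 TPM (log2 change -5.47). So the most depleted genes included muscle and secreted proteins as well as pluripotency factors. Crxos, a homeobox gene expressed in ES cells, went from 67.0 and 64.5 to 0.36 and 0.42 TPM (log2 change -5.58). Calcoco2 (an autophagy receptor), Aqp3 (a water and glycerol channel), Lrrc31, Cdx1, Spic (an ETS family factor), Klf2, Dpp4 (a cell-surface peptidase) and Myh13 (a myosin heavy chain) completed the 12 largest falls. Their log2 changes lay between -5.52 and -4.71. The adjusted p of these 24 genes reached at most 1.60e-06 and their standard errors at most 0.12.

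**Figure D2:**
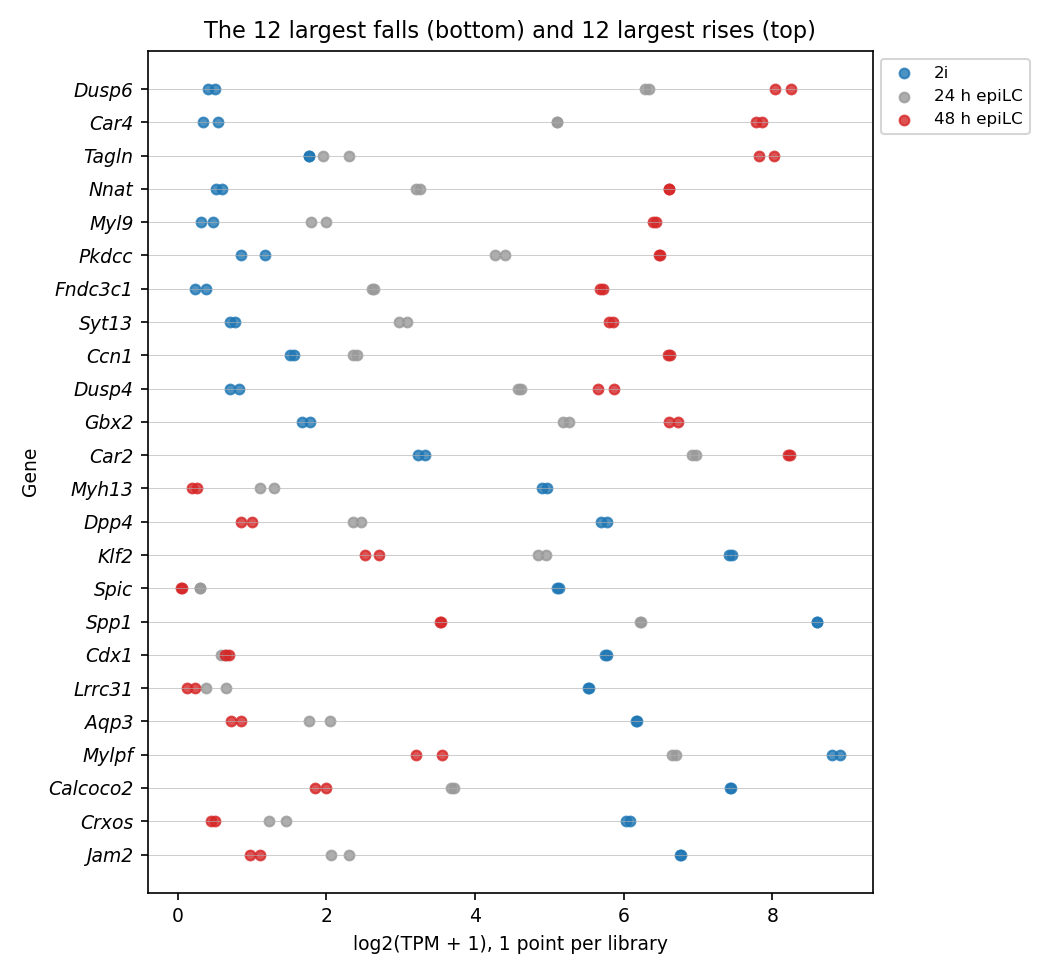
Values of the 12 largest rises (upper rows) and 12 largest falls (lower rows), each point 1 library, on the log2(TPM + 1) scale, for 2i, 24 h and 48 h of epiLC (2 libraries each). The 24 h points of Dusp6 and Car4 lie past the midpoint of the way to 48 h, while those of Tagln lie beside the 2i points.

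The windows before 4 genes that the account below turns on are shown because epiLC switch on the enzymes that methylate CG dinucleotides, which are in capitals. Each window spans 250 bases before to 50 bases after the first listed start in RefSeq (build GRCm38.p6) and reads 5′ to 3′ on the gene's strand. Dusp6 (chr10:99262981-99263280, plus strand) and Fgf5 (chr5:98253934-98254233, plus strand) rose, and Klf4 (chr4:55532426-55532725, minus strand) and Nanog (chr6:122707239-122707538, plus strand) fell.
Dusp6: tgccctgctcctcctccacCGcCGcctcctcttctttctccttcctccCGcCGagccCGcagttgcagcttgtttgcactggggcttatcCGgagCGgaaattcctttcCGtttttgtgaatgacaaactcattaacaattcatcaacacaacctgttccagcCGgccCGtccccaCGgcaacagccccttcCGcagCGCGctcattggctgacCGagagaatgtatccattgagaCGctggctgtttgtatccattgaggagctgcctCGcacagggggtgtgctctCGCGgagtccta
Fgf5: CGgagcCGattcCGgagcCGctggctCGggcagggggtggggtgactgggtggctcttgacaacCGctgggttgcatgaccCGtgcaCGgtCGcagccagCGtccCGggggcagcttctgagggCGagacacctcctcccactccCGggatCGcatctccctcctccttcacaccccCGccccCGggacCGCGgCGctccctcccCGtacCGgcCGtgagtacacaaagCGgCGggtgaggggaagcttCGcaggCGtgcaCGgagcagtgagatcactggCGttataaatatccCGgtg
Klf4: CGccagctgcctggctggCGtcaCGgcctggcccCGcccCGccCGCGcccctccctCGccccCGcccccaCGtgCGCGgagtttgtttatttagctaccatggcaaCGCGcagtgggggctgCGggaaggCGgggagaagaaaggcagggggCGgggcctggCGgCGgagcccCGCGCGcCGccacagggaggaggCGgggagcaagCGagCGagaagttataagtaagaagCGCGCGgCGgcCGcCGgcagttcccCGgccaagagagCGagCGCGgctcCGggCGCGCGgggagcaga
Nanog: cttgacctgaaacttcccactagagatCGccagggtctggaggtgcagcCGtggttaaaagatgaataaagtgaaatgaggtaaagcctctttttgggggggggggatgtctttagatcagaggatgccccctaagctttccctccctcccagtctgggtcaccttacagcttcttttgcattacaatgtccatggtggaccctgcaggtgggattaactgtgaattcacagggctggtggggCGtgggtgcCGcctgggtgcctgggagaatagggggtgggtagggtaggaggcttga
The Dusp6 window held 19 CG dinucleotides and the Fgf5 window 29. The Klf4 window held 40, the most of the 4, and the Nanog window 4. Over 27025 such mouse windows the median was 7, and 94.2% held at least 1 CG. Over the 10866 tested genes with a window it was 21, so Dusp6 lay slightly below the tested genes' median. The 2 genes that fell thus had the highest and the lowest count of the 4. Methylation itself was not measured in these libraries.

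Genes of naive pluripotency fell nearly as a block. Of 26 members 24 were lower and 2 higher, with 23 lower at least 2-fold, and the list's median log2 change was -3.20, against 0.11 over all genes. Klf2, a Krüppel-like factor that sustains the naive state, had 169 and 176 TPM in 2i and 5.56 and 4.71 TPM at 48 h (log2 change -4.82, adjusted p = 2.65e-08). Tfcp2l1, a factor that sustains self-renewal downstream of LIF, went from 83.9 and 79.8 to 2.95 and 3.76 TPM (log2 change -4.26). Prdm14, which holds back FGF signaling and DNA methyltransferases, went from 19.8 and 20.9 to 0.37 and 0.21 TPM (log2 change -4.05). For these 3 genes the groups lay far apart, and all 48 h libraries were below 6 TPM.

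Not all naive factors were lost to the same extent. Esrrb, a nuclear receptor of the naive network, had 141 and 142 TPM in 2i, 18.3 and 18.8 TPM at 24 h and 27.0 and 29.8 TPM at 48 h (log2 change -2.28). Nanog, a homeobox factor of the naive network, had 601 and 605 TPM in 2i, 47.1 and 46.7 TPM at 24 h and 175 and 157 TPM at 48 h, a log2 change of -1.86 (SE 0.05, adjusted p = 1.94e-07). For both genes the 24 h level lay below that at 48 h. Klf5, another Krüppel-like factor, went from 28.3 and 27.2 to 21.2 and 22.4 TPM, a log2 change of only -0.33. Klf4 fell by 2.74, Tbx3 by 3.73, Dppa3 by 3.05 and Zfp42 (REX1) by 3.14 on the log2 scale. Dppa5a, an RNA-binding protein and the most abundant of the naive genes named here, fell from 5904 and 5874 to 1215 and 1230 TPM. Morc1, a repressor of transposons, kept 31.7 and 33.2 of its 55.0 and 54.7 TPM at 24 h and stood at 2.38 and 2.27 TPM at 48 h. At 96 h, in the other table, Klf2, Klf4, Esrrb and Nanog were at 7.70 and 10.3, 1.48 and 1.62, 13.8 and 15.2, and 159 and 155 TPM.

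The member of the naive list that rose most was Gbx2, a homeobox factor that can sustain self-renewal when overexpressed in ES cells. It went from a mean of 2.31 ± 0.177 TPM (SD, n = 2) in 2i to 96.8 and 105 TPM (log2 change 4.95), through 37.3 and 35.3 TPM at 24 h. Its direction was thus opposite to that of 24 of the 26 members.

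**Figure D3:**
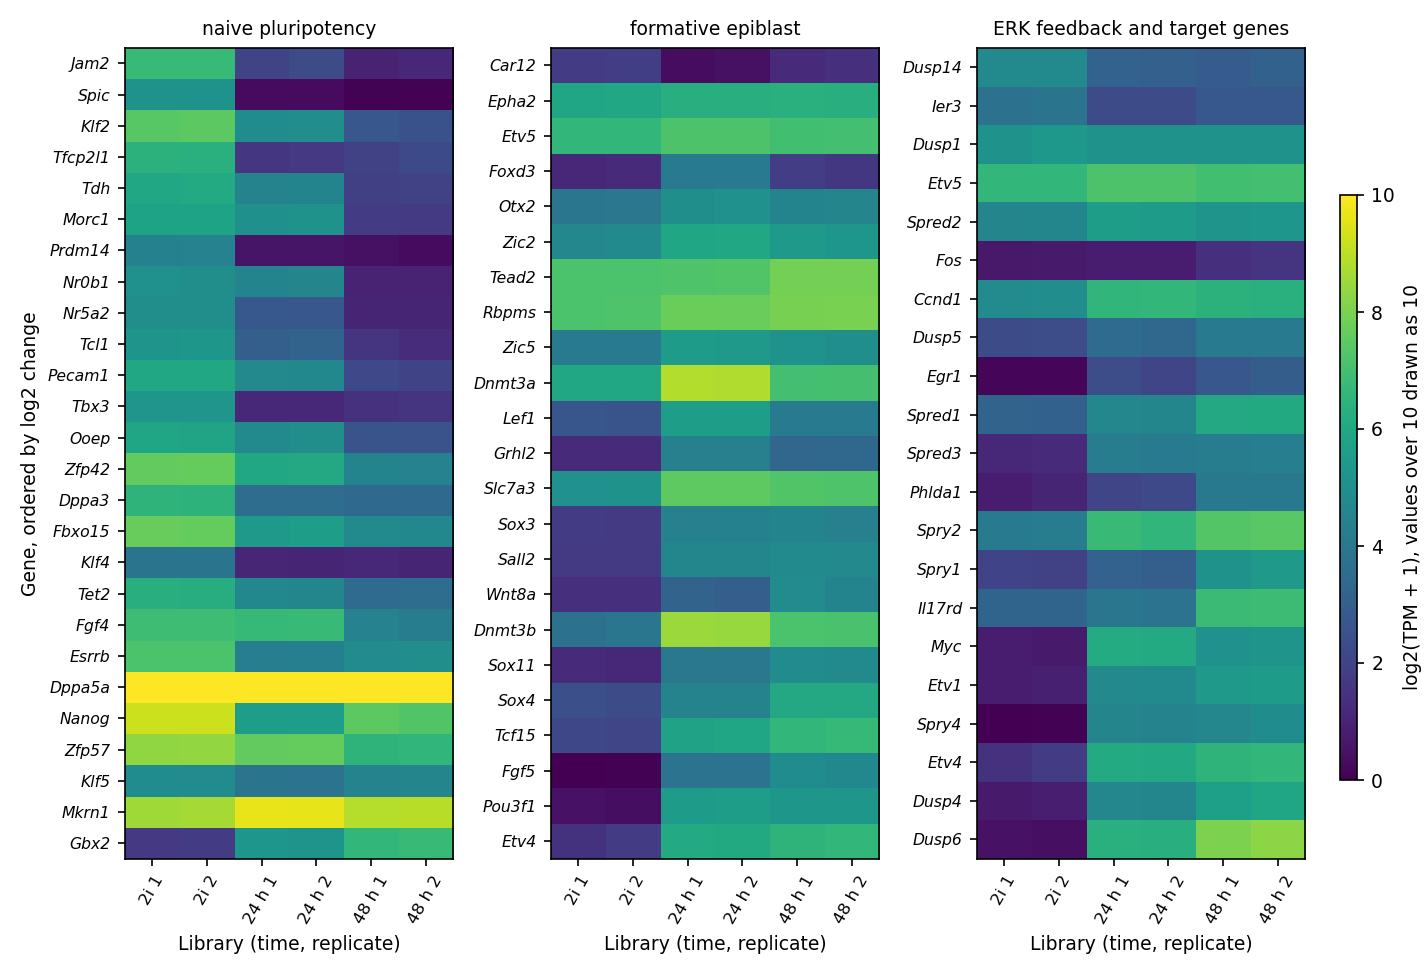
Log2(TPM + 1) in each of the 6 libraries of the table (columns, by time and replicate) for every tested member (rows, ordered by log2 change) of the naive, formative and ERK lists, with values over 10 drawn as 10. Most naive genes pass from light to dark and most formative and ERK genes from dark to light, while Gbx2 goes against most naive genes with a log2 change of 4.95.

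Core pluripotency genes went both ways. Of 14 members 8 were higher and 4 lower, beside 45.1% and 30.8% of all genes tested, and the median change was 0.30. Pou5f1, which encodes OCT4, was at 1047 and 1080 TPM in 2i, 1234 and 1280 TPM at 24 h, and 349 and 336 TPM at 48 h (log2 change -1.63, adjusted p = 5.16e-08). Sox2, its DNA-binding partner, went from 132 and 131 to 49.1 and 47.6 TPM (log2 change -1.42). Both genes therefore stayed expressed at a lower level, with 2i values 3.10 and 2.71 times those at 48 h. At 96 h, in the other table, Pou5f1 was at 348 and 360 TPM and Sox2 at 51.2 and 53.1 TPM. In the other direction Utf1, a chromatin-associated factor of pluripotent cells, went from 25.6 and 26.8 through 507 and 504 TPM at 24 h to 238 and 248 TPM (log2 change 3.17).

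Formative genes rose almost without exception. Of 23 members tested 22 were higher and 1 lower, 14 of them at least 2-fold higher and 0 at least 2-fold lower, with a median change of 2.14. The list's remaining member, Otx1, was not tested, since it did not reach 1 TPM in 2 libraries (at most 1.23 TPM in the 4 compared). Fgf5, the FGF ligand that marks the postimplantation epiblast, was listed at 0 and 0.04 TPM in 2i and had 28.1 and 24.8 TPM at 48 h (log2 change 4.75, adjusted p = 3.00e-08). Pou3f1 (OCT6), a POU factor of the epiblast, went from 0.42 and 0.31 to 38.7 and 38.6 TPM (log2 change 4.86). Tcf15, a basic helix-loop-helix factor linked to exit from the naive state, went from 3.53 and 3.20 to 96.7 and 102 TPM (log2 change 4.53). These genes were close to absent or low in 2i, and their groups did not overlap, as in 87.2% of all genes tested.

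Transcription factors of the SOX and SALL families followed. Sox11 went from 1.30 and 1.25 to 27.2 and 26.7 TPM, Sox3 from 2.30 and 2.24 to 21.7 and 19.5 TPM, and Sall2 from 2.21 and 2.24 to 25.8 and 25.0 TPM, with log2 changes of 3.62, 2.72 and 3.03. Otx2, a homeobox factor that directs the exit from the naive state, changed less in net terms, from 14.3 and 14.7 to 21.7 and 22.2 TPM (log2 change 0.57). Its 24 h level, 30.5 and 32.2 TPM, lay above both. Zic2, a zinc-finger factor, had the same order, with 24.1 and 26.4 TPM in 2i, 60.2 and 61.7 TPM at 24 h and 40.2 and 37.4 TPM at 48 h (log2 change 0.60).

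Most ERK feedback and target genes rose. Of 21 members 18 were higher and 2 lower, 15 at least 2-fold higher and 2 at least 2-fold lower, and the median change was 3.11. The 2 that fell, singled out after their values were seen, were Dusp14, a phosphatase, and Ier3, an immediate early gene (log2 changes -1.76 and -1.06). Spry4, an inhibitor of receptor signaling to ERK, went from 0.02 and 0.03 to 24.1 and 28.0 TPM (log2 change 4.72), and Il17rd, a membrane-bound FGF antagonist, from 8.29 and 8.33 to 111 and 114 TPM (log2 change 3.61). Il17rd was still at 14.1 and 13.1 TPM at 24 h. Among the transcription factors downstream of ERK, Etv1 went from 0.68 and 0.86 to 42.1 and 45.0 TPM (log2 change 4.65). Myc, the growth regulator, had 0.70 and 0.65 TPM in 2i, 69.8 and 69.0 TPM at 24 h and 32.4 and 34.99 TPM at 48 h (log2 change 4.37). Egr1, an immediate early gene, stayed low, with 0.10 and 0.14 against 5.51 and 6.67 TPM (log2 change 2.66). For each of the 5 rising genes named here both 48 h libraries lay above both 2i libraries. Groups that did not overlap were found in 87.2% of all genes tested.

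Upstream of ERK, 9 of 13 FGF ligands and receptors tested were higher and 4 lower, with a median change of 1.18. The ligands exchanged places. Fgf4, the main FGF of naive cells, fell from 117 and 118 to 20.5 and 17.6 TPM (log2 change -2.57), and at 24 h it was still at 104 and 106 TPM. Fgf8, a ligand of the gastrulating embryo, rose from 0.42 and 0.45 to 27.5 and 24.7 TPM (log2 change 4.24). Fgf15, an FGF of the hormone-like subfamily, rose from 0.36 and 0.20 to 11.4 and 10.7 TPM (log2 change 3.24). With Fgf5 these gave 3 ligands that were near 0 in 2i and above 10 TPM in every 48 h library.

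Genes of the LIF and STAT3 pathway, which sustains naive ES cells, did not fall as a list. Of 12 tested 6 were higher and 4 lower, beside 45.1% and 30.8% of all genes tested, with a median change of 0.31. The members named here, those of lowest p, all rose. The lower members are not named, and 1 of them fell at least 2-fold (log2 change -1.02). Socs2, a suppressor of cytokine signaling, went from 13.4 and 13.4 to 53.9 and 58.6 TPM (log2 change 1.99). Pim1, a serine/threonine kinase, went from 69.3 and 65.2 to 273 and 315 TPM (log2 change 2.11), and its relative Pim3 from 29.9 and 31.4 to 106 and 124 TPM (log2 change 1.86). Junb, an AP-1 subunit, went from 1.04 and 1.00 to 22.6 and 25.7 TPM (log2 change 3.64). Pim1 and Pim3 at 24 h, with 60.4 to 62.5 and 29.6 to 30.3 TPM, were still at the 2i level. Each of these 4 genes is also known to respond to signals other than STAT3.

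β-catenin itself was measured before its targets, since it is the protein that the series is about. Ctnnb1 was at 366 and 368 TPM in 2i, 398 and 401 TPM at 24 h and 604 and 604 TPM at 48 h, a log2 change of 0.72 (SE 0.02, adjusted p = 3.04e-07). Its transcript was thus higher by a factor of 1.65, with no overlap between the groups (as in 87.2% of all genes tested). It stood at 448 and 441 TPM at 96 h. Transcript level says nothing of how stable the protein was in either medium.

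Wnt target genes went both ways. Of 20 members tested 10 were higher and 8 lower, 5 at least 2-fold in each direction, and the median change was 0.20, close to that of all genes. Axin2, a negative regulator and general readout of β-catenin signaling, fell from 21.6 and 23.3 to 9.21 and 9.72 TPM (log2 change -1.16, adjusted p = 3.40e-06). Cdx1, a caudal homeobox gene, fell from 52.6 and 54.0 to 0.61 and 0.56 TPM (log2 change -5.10). Its paralog Cdx2 rose from 0.82 and 0.63 to 5.99 and 7.92 TPM (log2 change 2.20). Sp5, a Wnt-induced zinc-finger factor, was low in both states, with 1.39 and 1.28 against 0.27 and 0.47 TPM (log2 change -0.77). The 2 caudal genes thus had opposite signs within 1 list. Ccnd1, cyclin D1, rose from 27.5 and 28.8 to 84.7 and 81.3 TPM (log2 change 1.53).

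Among the TCF and LEF factors through which β-catenin acts on DNA, Lef1 had the largest change. It went from 5.33 and 5.12 through 48.1 and 46.9 TPM at 24 h to 16.2 and 15.9 TPM (log2 change 1.45, adjusted p = 3.26e-07). Tcf7 (TCF1) rose from 33.3 and 35.8 to 45.0 and 44.9 TPM (log2 change 0.37) and Tcf7l2 (TCF4) from 4.07 and 4.43 to 5.56 and 5.31 TPM (log2 change 0.29). Tcf7l1 (TCF3), the repressor of naive genes, had 21.3 and 22.3 against 27.1 and 24.2 TPM, with a log2 change of 0.22 (adjusted p = 0.0102). Its call did not hold under median-of-ratios scaling (log2 change 0.12, adjusted p = 0.0894) and without 2i replicate 1 (0.19, adjusted p = 0.0569). Both chromatin repressors named beside them rose slightly. E2f6, a repressive E2F that the series also targets with a hairpin, went from 19.9 and 18.7 to 30.0 and 28.5 TPM (log2 change 0.58), and Cbx3 (HP1γ), which binds methylated histone H3, from 260 and 247 to 315 and 308 TPM (log2 change 0.30).

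Nodal signaling keeps the epiblast pluripotent and patterns it later. Of 16 list members tested 13 were higher and 2 lower, 5 at least 2-fold higher and 1 at least 2-fold lower, with a median change of 0.53. Lefty1, an inhibitor induced by Nodal, went from 102 and 106 to 654 and 569 TPM (log2 change 2.54). The inhibitor Smad7 went from 11.01 and 10.6 to 29.7 and 31.3 TPM (log2 change 1.42). Pcsk6, a protease that processes the Nodal precursor, fell from 29.8 and 30.1 to 7.93 and 7.88 TPM (log2 change -1.80).

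In the BMP pathway 7 of 12 members tested were higher and 3 lower, beside 45.1% and 30.8% of all genes tested. The median change was 0.37. The members named here, those of lowest p, all rose. The lower members are not named, and the largest fall among them had a log2 change of -0.63. Its target genes Id1, Id2 and Id3, inhibitors of helix-loop-helix factors, rose from 2.59 and 2.31 to 17.0 and 14.8 TPM, from 2.96 and 3.18 to 17.7 and 15.3 TPM, and from 1.91 and 2.65 to 12.3 and 11.4 TPM. Their log2 changes were 2.29, 2.10 and 1.98. Smad5, which carries the BMP signal to the nucleus, rose from 13.6 and 14.5 to 32.7 and 33.1 TPM (log2 change 1.17).

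The DNA methylation list balanced in number, with 7 of 16 members higher, 7 lower and a median of -0.01, yet its enzymes moved in distinct ways. Dnmt3b, a de novo methyltransferase, was at 12.4 and 14.3 TPM in 2i, 356 and 354 TPM at 24 h and 143 and 138 TPM at 48 h (log2 change 3.31, adjusted p = 5.16e-08). Dnmt3a, the other de novo enzyme, went from 61.6 and 63.2 through 454 and 446 TPM to 127 and 133 TPM (log2 change 1.04). Dnmt3l, their cofactor without catalytic activity, went from 37.6 and 42.1 through 254 and 250 TPM to 57.6 and 52.6 TPM (log2 change 0.46). All 3 had their highest of these levels at 24 h, so the comparison of 2i with 48 h alone shows a smaller difference than the 24 h levels do.

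Removal and protection of methylation changed as well. Tet2, a dioxygenase that oxidizes methylcytosine, fell from 75.8 and 74.3 to 10.4 and 10.9 TPM (log2 change -2.71). Zfp57, which guards methylation at imprinted loci, fell from 321 and 333 to 90.7 and 94.3 TPM (log2 change -1.81). Gadd45a, a stress-induced gene linked to demethylation, rose from 10.2 and 9.98 to 52.7 and 52.0 TPM (log2 change 2.27).

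Genes of the germline, many of which are silenced by promoter methylation in somatic cells, fell more often than they rose. Of 28 tested 18 were lower and 8 higher, 8 and 3 of them at least 2-fold, and the median change was -0.57. Stra8, the meiotic gatekeeper induced by retinoic acid, fell from 124 and 127 to 7.29 and 7.39 TPM (log2 change -3.93). Tex14, a protein of the bridges between germ cells, had 35.2 and 36.2 TPM in 2i, 25.1 and 23.9 TPM at 24 h and 4.90 and 4.51 TPM at 48 h (log2 change -2.69). Rpl10l, a testis form of a ribosomal protein, likewise stayed at 45.6 and 46.8 TPM at 24 h before 7.44 and 6.74 TPM at 48 h (log2 change -2.49). Against these, Tdrkh, a piRNA pathway protein, rose from 7.47 and 6.98 to 32.0 and 31.1 TPM (log2 change 1.99).

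Genes of the 2-cell embryo, which a small share of ES cells expresses at any time, had no riser. Of 18 gene models 14 were lower and 0 higher, 8 at least 2-fold lower, with a median of -0.81. Zscan4a went from 18.8 and 17.1 to 4.00 and 3.40 TPM (log2 change -2.01), Zscan4c from 26.5 and 22.2 to 8.52 and 8.40 TPM (-1.42), Zscan4e from 28.3 and 25.9 to 12.0 and 10.7 TPM (-1.18), and Tmem92 from 8.86 and 8.41 to 3.15 and 2.49 TPM (-1.34). RefSeq lists Zscan4e as a pseudogene and Zscan4a as a transcribed pseudogene. Zscan4 copies are nearly identical and may share reads, so their single values are uncertain. The counts of this list include several such copies and are not counts of independent genes. At 96 h, in the other table, the 3 Zscan4 copies named here stood at 27.9 to 75.1 TPM.

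Primed epiblast and gastrulation genes rose in part. Of 22 members 15 were tested, and 9 of these were higher and 5 lower, 7 and 2 of them at least 2-fold, with a median of 0.87. Krt8 and Krt18, the paired keratins of simple epithelia, rose from 14.2 and 15.0 to 74.5 and 75.7 TPM and from 15.0 and 16.2 to 93.8 and 100.1 TPM (log2 changes 2.29 and 2.56). T (brachyury), the mesoderm factor, stayed low, with 1.75 and 1.56 TPM in 2i, 0.34 and 0.21 TPM at 24 h and 3.47 and 4.25 TPM at 48 h (log2 change 0.87, adjusted p = 0.000301). T was thus low in each library, and Fgf8 and Cdx2, also on this list and given above, rose. The 2 members at least 2-fold lower were Cdx1, given above (log2 change -5.10), and Nkx1-2, singled out afterwards, which was at least 8-fold lower.

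Markers of other cell types differed in level, and several were as high at 48 h as the formative genes Fgf5 and Pou3f1. Of 15 neuroectoderm genes 8 were tested, 6 higher and 2 lower, 5 and 1 of them at least 2-fold. The list's summed level went from 29.4 to 32.0 TPM in 2i to 140 to 145 TPM at 48 h. The members of lowest p, named next, all rose, while the largest fall on the list had a log2 change of -1.14. Sox1, an early neural plate factor, went from 0.44 and 0.45 to 37.1 and 32.9 TPM (log2 change 4.64), and Pax6, a later one, from 0.61 and 0.61 to 19.02 and 18.1 TPM (log2 change 3.60). Nes, an intermediate filament of neural progenitors, went from 10.1 and 10.9 to 42.7 and 43.5 TPM, and Map2, a neuronal microtubule protein, from 1.58 and 1.32 to 9.42 and 9.70 TPM. The proneural genes Neurog1 and Neurog2, with Hes5, Pou3f2 and Six3, did not pass 0.92 TPM in these 4 libraries.

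Of 16 primitive endoderm genes 8 were tested, 7 higher and 1 lower, with a summed level of 171 to 173 TPM in 2i and 244 to 251 TPM at 48 h. Members that rose included Lrp2 (a large endocytic receptor) from 3.29 and 3.34 to 73.3 and 72.1 TPM, Dab2 (an endocytic adaptor) from 0.47 and 0.63 to 13.6 and 16.9 TPM, and the collagens Col4a1 and Col4a2 with log2 changes of 2.54 and 2.12. Of the defining factors, Gata6, Sox17, Sox7, Foxa2 and Hnf4a, with Pdgfra, Afp and Ttr, stayed at or below 0.87 TPM in the 4 compared libraries. Gata4, another such factor on the list, passed the expression limit and was among the 8 tested. Of 15 trophoblast genes 12 were tested, 6 higher and 6 lower. Tead4, a factor needed for the trophectoderm, fell from 13.4 and 14.7 to 3.24 and 3.62 TPM (log2 change -1.77), and the list's largest rises were the keratins and Cdx2 given above.

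Fibroblast and feeder markers matter beside the rises of Tagln and Myl9, since mesenchymal cells express such contractile genes. Of 16 genes 11 were tested, 9 higher and 1 lower, all 9 at least 2-fold, with a median of 1.57. Their summed level went from 11.4 to 11.8 TPM in 2i to 281 to 312 TPM at 48 h, and without Tagln and Acta2 from 8.91 to 9.33 TPM to 31.4 to 32.2 TPM. Acta2, smooth muscle actin, went from 0.04 and 0.13 to 22.4 and 23.1 TPM, Col1a2, a collagen chain, from 0.10 and 0.08 to 4.79 and 4.32 TPM, and Twist1, a mesenchymal factor, from 2.09 and 2.32 to 11.3 and 11.4 TPM. Lox, Lum, Postn, Prrx1 and S100a4 stayed at or below 0.37 TPM. The part of other cell types in these rises was not tested. At 96 h, Tagln was at 31.0 and 32.3 TPM and Acta2 at 1.19 and 1.57 TPM.

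Hox genes, which give cells their position along the body axis, were higher in 15 of 21 members tested and lower in 5, with 13 at least 2-fold higher, 2 at least 2-fold lower and a median of 1.71. The 2 lower genes, singled out after their values were seen, were Hoxb13 (2.51 and 2.41 to 0.34 and 0.32 TPM) and Hoxc4 (2.75 and 2.55 to 0.80 and 0.83 TPM), and without 2i replicate 1 or 48 h replicate 1 only 1 Hox gene was at least 2-fold lower. Hoxb2 went from 0.51 and 0.49 to 27.5 and 25.2 TPM (log2 change 4.19), Hoxa10 from 1.50 and 1.41 to 25.8 and 25.3 TPM (3.43), Hoxb5 from 0.04 and 0.02 to 7.77 and 6.95 TPM (3.02) and Hoxa5 from 1.83 and 1.66 to 17.2 and 15.3 TPM (2.65). The rises therefore included both an anterior gene (Hoxb2) and a posterior one (Hoxa10). All 4 had 24 h levels between the other groups, from 1.54 to 4.88 TPM.

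Imprinted genes, expressed from 1 parental copy, rose in most members. Of 22 members 19 were higher and 2 lower, 13 at least 2-fold higher, with a median of 1.39. Mest, an enzyme of the hydrolase family expressed from the paternal copy, had 20.1 and 20.3 TPM in 2i, 92.4 and 90.7 TPM at 24 h and 572 and 563 TPM at 48 h (log2 change 4.75, adjusted p = 2.23e-09). Nnat, a small membrane proteolipid, went from 0.43 and 0.51 to 96.3 and 96.7 TPM (log2 change 6.05). Igf2, the fetal growth factor, stayed at 3.45 and 3.56 TPM at 24 h against 5.08 and 5.00 TPM in 2i, and reached 60.4 and 62.9 TPM at 48 h (log2 change 3.37). Peg3, a zinc-finger factor, went from 27.8 and 27.2 to 149 and 142 TPM (log2 change 2.37). Plagl1, a zinc-finger factor singled out after its values were seen, fell where most of the list rose, from 98.7 and 95.0 to 18.5 and 16.0 TPM (log2 change -2.42), with 1.81 and 2.07 TPM at 24 h.

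**Figure D4:**
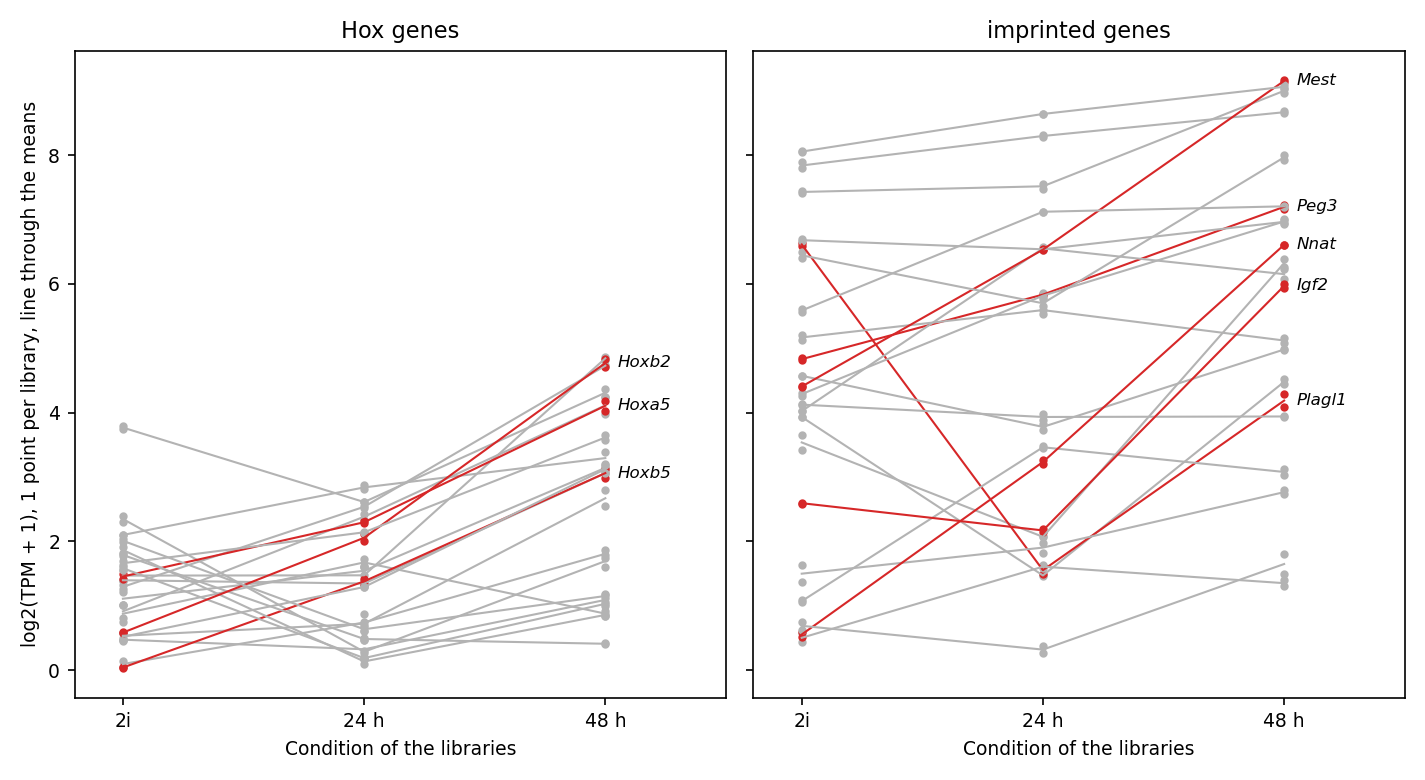
Log2(TPM + 1) of tested Hox genes (left) and imprinted genes (right) in 2i and at 24 h and 48 h of epiLC, each point 1 library and each line 1 gene through the group means, with the labeled genes in red. Hoxb2 and Mest climb through 24 h to 48 h, Igf2 climbs only after 24 h, and Plagl1 ends below its 2i level with a log2 change of -2.42.

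Cell adhesion and polarity genes were higher in 24 of 34 members and lower in 7, with 14 at least 2-fold higher, 4 at least 2-fold lower and a median of 0.79. Those 4, singled out after their values were seen, were the basement membrane and matrix genes Nid1 and Fn1 (log2 changes -2.47 and -1.79), the polarity kinase Prkci (-1.05) and the actin linker Ezr (-1.03). Cdh2 (N-cadherin) went from 0.99 and 0.80 to 38.8 and 38.8 TPM (log2 change 4.39). Cdh1 (E-cadherin), the epithelial cadherin bound by β-catenin, had 209 and 217 against 215 and 225 TPM, a log2 change of 0.05 (adjusted p = 0.226) that did not pass the test and whose sign turned under median-of-ratios scaling (-0.0628). The Cdh2 transcript thus rose while that of Cdh1 stayed high and overlapped between the groups. Whether the same cells held both cannot be told from bulk RNA. Vim (vimentin) went from 35.1 and 37.3 to 196 and 205 TPM (log2 change 2.44). Jup, plakoglobin, the close relative of β-catenin in junctions, went from 27.3 and 26.5 to 98.9 and 104 TPM (log2 change 1.88), with 26.8 and 27.1 TPM at 24 h. Podxl, an anti-adhesive sialomucin of lumen surfaces, went from 2.26 and 2.54 to 32.2 and 34.4 TPM (log2 change 3.34).

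The LIN28 and HMGA list, fetal growth regulators and other genes linked to let-7, was higher in 10 of 12 members and lower in 2. Its median was 1.01. Lin28a, which blocks let-7 maturation, had 12.0 and 12.6 TPM in 2i, 236 and 235 TPM at 24 h and 243 and 246 TPM at 48 h (log2 change 4.20), and its paralog Lin28b rose from 8.44 and 8.57 to 41.5 and 41.5 TPM (log2 change 2.16). Hmga2, a chromatin protein and known let-7 target, lagged at 6.12 and 5.55 TPM at 24 h, against 4.72 and 4.64 TPM in 2i, and then stood at 91.3 and 90.3 TPM (log2 change 4.01). So Lin28a had reached its 48 h level by 24 h, while Hmga2 was near its 2i level.

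Cell cycle genes moved little as a list, with 18 of 33 higher, 10 lower and a median of 0.11, level with that of all genes. Among the named members, Cdkn1c, the imprinted CDK inhibitor, rose from 15.3 and 15.2 to 74.1 and 66.3 TPM (log2 change 2.13), and Ccnd1 is given above. Ccne1, cyclin E1, rose from 40.6 and 43.1 to 85.0 and 84.1 TPM (log2 change 1.00), and Cdk4, the partner of cyclin D, from 647 and 659 to 962 and 947 TPM (log2 change 0.55). p53 targets were higher in 15 of 17 members and lower in 2, 6 at least 2-fold higher, with a median of 0.93. They included Perp, a desmosomal membrane protein (3.29 and 3.28 to 34.2 and 36.6 TPM), Btg2, an antiproliferative gene (11.9 and 10.4 to 63.1 and 60.9 TPM), Pmaip1 (NOXA), a pro-apoptotic BCL2 relative (28.7 and 26.6 to 135 and 134 TPM), and Plk2, a stress-induced kinase (5.81 and 6.04 to 20.6 and 20.2 TPM).

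Glycolytic genes fell in most members. Of 26 gene models 19 were lower and 4 higher, with 9 at least 2-fold lower and 1 at least 2-fold higher, and the median was -0.56. Pfkp, the platelet phosphofructokinase, fell from 331 and 354 to 22.2 and 20.6 TPM (log2 change -3.94), and Ldhb, a lactate dehydrogenase subunit, from 309 and 306 to 65.0 and 65.5 TPM (log2 change -2.22). Bnip3, a hypoxia-induced mitophagy receptor placed in this list, fell from 244 and 260 to 30.6 and 28.0 TPM (log2 change -3.06). The glucose importer Slc2a1 (GLUT1) went the other way, from 122 and 131 through 94.5 and 94.3 TPM at 24 h to 457 and 442 TPM (log2 change 1.82). This transporter thus went against 19 of the 26 gene models.

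Genes of cholesterol synthesis were lower in 20 of 24 members and higher in 3, but by small steps, with only 3 at least 2-fold lower and a median of -0.33. Tm7sf2, a sterol reductase, fell by 1.38, Insig1, the sterol-regulated brake on SREBP, by 1.03, and Msmo1, a methylsterol oxidase, by 0.81 on the log2 scale. Stress and ATF4 genes were mixed, with 8 of 20 higher, 9 lower and a median of -0.11. Asns, asparagine synthetase, fell from 794 and 795 to 247 and 250 TPM (log2 change -1.67), Cth, which makes cysteine, by 2.26 and Nupr1, a stress-induced nuclear protein, by 3.03 on the log2 scale. Chac1, a glutathione-degrading enzyme, rose from 7.55 and 7.22 to 18.5 and 18.8 TPM (log2 change 1.23).

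Polycomb genes were lower in 12 of 20 members and higher in 6, with a median of -0.18. The core PRC2 subunits Suz12 and Eed fell from 173 and 166 to 76.5 and 72.4 TPM and from 163 and 165 to 91.4 and 94.9 TPM (log2 changes -1.18 and -0.81). Mtf2, an accessory subunit that recruits PRC2 to CG-rich DNA, fell further, from 341 and 321 to 106 and 107 TPM (log2 change -1.63). Rbbp7, a histone-binding subunit shared with other complexes, rose from 410 and 401 to 828 and 826 TPM (log2 change 1.03).

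**Figure D5:**
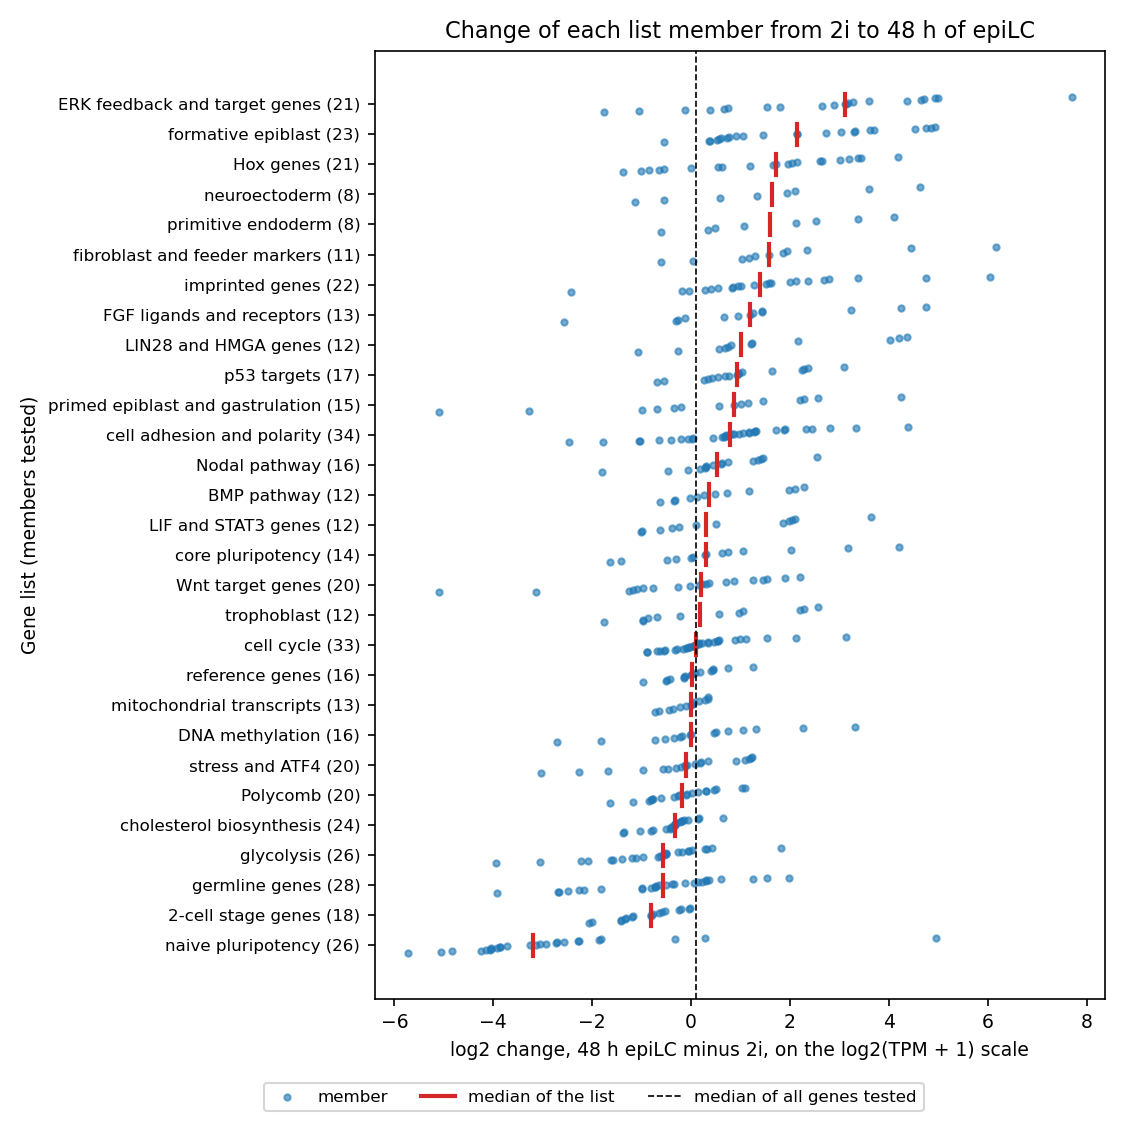
Log2 change (48 h minus 2i) of every tested member of the gene lists, 1 point per gene, with the median of each list as a bar and the median over all genes (0.11) as a line. The naive list lies lowest with a median of -3.20 and the ERK list highest with 3.11, and the reference genes spread around 0.

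With ribosomal protein and predicted genes left out, the 6 largest gains in TPM were those of Actg1, Hsp90ab1, Actb, Tpm1, mt-Cytb and Hnrnpa2b1. Actg1 and Actb, the cytoplasmic actins, went from 901 and 913 to 2928 and 2995 TPM and from 1075 and 1070 to 2531 and 2595 TPM, and Tpm1, a tropomyosin, from 95.98 and 95.3 to 1047 and 1091 TPM (log2 changes 1.71, 1.26 and 3.47). At 24 h Tpm1 was at 86.1 and 81.7 TPM, below its 2i level. Hsp90ab1, the constitutive HSP90 chaperone, rose from 3105 and 3134 to 4604 and 4696 TPM, while its inducible relative Hsp90aa1 fell from 3934 and 3832 to 2408 and 2335 TPM. Hnrnpa2b1, an RNA-binding protein, rose by 0.67 on the log2 scale. Mt2, a metallothionein, fell from 2442 and 2532 to 593 and 535 TPM, and Aldoa, the glycolytic aldolase, fell by 1.11 and Eef1a1, the translation elongation factor, by 0.14 on the log2 scale.

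Mitochondrial transcripts did not move as a block, with 3 of 13 higher, 2 lower, 8 not passing and a median of 0.00. Mt-Co1 fell from 15098 and 14164 to 8849 and 8835 TPM (log2 change -0.73), while mt-Cytb, mt-Nd4 and mt-Nd4l rose by 0.34, 0.28 and 0.34. Of 16 genes often used as references 7 were higher, 7 lower and 2 did not pass, with a median of 0.02. Tubb5 rose by 0.45 and Hprt fell by 0.49 on the log2 scale. Actb, a usual denominator for expression assays, was thus 2.39 times as high at 48 h as in 2i.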

How the data were processed

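RNA-seq of V6.5 cells was taken from the values that the authors deposited as TPM. TRIzol extraction, DNase treatment and a TruSeq RNA kit preceded sequencing, per the labels' protocols. Per the submitters' processing notes, bcl2fastq 2.18, STAR, RSEM and Bowtie2 were used with mm10. Other versions are not given in the sources used here. TPM keeps no depth, so depth is unknown and no interval that needs it is given.

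From the deposited TPM, log2(TPM + 1) was computed for genes at 1 TPM or more in at least 2 of 6 libraries. All 6 libraries entered 1 limma fit (limma 3.58.1, statmod 1.5.0, R 4.3.3) in which each group had its own term and the variance was moderated robustly along a trend. The fit was tested on simulated data. Tests were two-sided, with Benjamini-Hochberg adjustment over 16559 genes and a threshold of 0.05. No 24 h or 96 h level was tested.

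The comparison and the 29 gene lists were chosen with earlier results of these data known. Lists are described by counts and medians, without a test of the list. Aldoa, with 2 gene models, counts by model. Genes were named by rule: the 12 largest rises and 12 largest falls among called genes whose groups do not overlap and whose higher mean is at least 2 TPM, the 6 largest TPM differences each way (both without predicted, pseudo-, small RNA and ribosomal protein genes), from each list the 4 members of lowest p, and 43 genes chosen by name, 160 in all. A comparison of promoter sequence between rising and falling genes was void, since only 10866 of 16559 genes had a window by symbol. Alternatives were another pseudocount, expression limit, scaling, model and set of libraries. A few genes that the rule names are not reported here.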

Additional observations from a re-analysis of the deposited data

How the results depend on the processing

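Asking for at least a 2-fold change lowered the count of changed genes from 12567 to 3370, with 1994 higher instead of 7474 and 1376 lower instead of 5093, and 28 of the 160 named genes lost their call. Leaving out 1 library at a time gave 11723 to 11976 changed genes, 7029 to 7244 higher and 4694 to 4732 lower. The counts at 2-fold were then 3332 to 3414 in all, 1972 to 2043 higher and 1352 to 1400 lower. A pseudocount of 0.1 raised them to 4397, 2596 and 1801, and a minimum of 5 TPM, under which fewer genes are tested, lowered them to 2384, 1419 and 965, with 3 instead of 9 fibroblast genes and 4 instead of 7 primed genes at least 2-fold higher. Other settings gave 12451 genes with a pseudocount of 0.1, 9569 of 11739 with a minimum of 5 TPM, 15194 of 34850 with no minimum, 12457 with median-of-ratios scaling, 12404 with the compared groups alone, 12344 without trend and robust moderation, and 12559 without mitochondrial transcripts, a setting chosen after seeing the data. Median-of-ratios scaling gave 6474 higher and 5983 lower genes, moved the median of all genes to 0.02, turned the sign of Cdh1 (-0.0628) and ended the call of Tcf7l1. Apart from these genes and the loss of the Tcf7l1 call without 2i replicate 1, the named genes tested kept direction and call in all these settings other than the 2-fold one. Same-numbered libraries shared little of their deviations, which correlated at 0.09 between 2i and 48 h across genes. This cannot settle whether the libraries were paired. With the replicate number as a block 12484 genes were called. Depth is unknown, so how it limits low genes cannot be given.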
